A study of Mus musculus with 36 samples.

Results

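The hypothalamus of wild-type mice was compared with the cortex of wild-type mice by RNA sequencing, gene by gene. The 12 libraries compared were all the wild-type libraries of the 2 regions, out of 36 libraries in the series, which also holds brainstem and mutant mice. They fell into 4 groups of 3: hypothalamus and cortex from wild types (+/+) of the Hcrt/Orexin-ataxin-3 line, and the same regions from wild types (+/+) of the Hcrt/Orexin knockout line. The strain was C57BL/6 in every group. None of these 12 libraries carries the ataxin-3 transgene, which ablates the hypocretin (orexin) cells in the transgenic mice of its line, or the Hcrt knockout. The series was designed to set the 2 narcolepsy models against such controls. Comparing the regions within the controls asks which genes mark each tissue when Hcrt and its neurons are intact. The labels give neither the ages of the mice nor the extent of the dissections. They also do not say whether each library is a separate mouse. The p-values then rest on how far these libraries differ from each other, which may be partly technical.

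The hypothalamus lies at the base of the forebrain and is made of many small nuclei. Their neurons release peptides, some into the blood, and govern feeding, body fluid, temperature, reproduction, sleep and the pituitary. The cortex is a layered sheet in which glutamate neurons that carry the vesicular transporter Slc17a7 far outnumber GABA interneurons, and its neurons switch on immediate early genes when they fire. Bulk RNA averages all cells of a dissection. A gene that read lower may be made by fewer cells or at less RNA per cell, and these cannot be told apart here.

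Promoter sequences of 6 genes are shown first because their genes stand for groups that differed in opposite directions. Oxt and Avp, the neighbouring oxytocin and vasopressin genes, and Pmch, the melanin-concentrating hormone precursor, stand for peptide genes higher in hypothalamus. Npas4, Egr4 and Fosb stand for immediate early genes higher in cortex, and Fosb was chosen after its values were seen. Each line holds the 250 bases before the transcription start from RefSeq (GRCm38.p6), 5′ to 3′ on the strand of the gene. Capitals mark 3 motifs searched on both strands, with no overlap among them in these windows. TAATTA and the CArG box (CC, 6 letters of A or T, GG) were also searched and were in none of these windows. TATAAA is a form of the TATA box, and TGACG holds the core letters of the cAMP response element. The third, TGACC, is a nuclear receptor half-site. On the opposite strand the 3 motifs appear as their reverse complements. Other forms of the TATA box, such as the tatataa in the Npas4 and Egr4 windows, were not searched or marked.
Oxt (chr2:130575919-130576168, plus strand): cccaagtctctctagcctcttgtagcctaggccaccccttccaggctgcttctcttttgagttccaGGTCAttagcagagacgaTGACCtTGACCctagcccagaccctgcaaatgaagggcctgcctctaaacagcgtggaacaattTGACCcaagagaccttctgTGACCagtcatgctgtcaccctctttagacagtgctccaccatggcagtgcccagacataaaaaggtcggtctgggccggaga
Avp (chr2:130582589-130582838, minus strand): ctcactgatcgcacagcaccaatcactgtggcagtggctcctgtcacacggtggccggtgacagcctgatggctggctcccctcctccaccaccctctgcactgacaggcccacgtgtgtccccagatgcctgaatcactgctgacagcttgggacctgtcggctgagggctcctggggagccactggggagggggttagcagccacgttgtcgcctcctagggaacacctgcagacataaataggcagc
Pmch (chr10:88090822-88091071, plus strand): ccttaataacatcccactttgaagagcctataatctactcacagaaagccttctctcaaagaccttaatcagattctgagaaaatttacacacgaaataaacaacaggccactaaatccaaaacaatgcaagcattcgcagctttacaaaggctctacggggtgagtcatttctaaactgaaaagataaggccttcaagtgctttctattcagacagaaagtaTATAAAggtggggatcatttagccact
Npas4 (chr19:4989972-4990221, minus strand): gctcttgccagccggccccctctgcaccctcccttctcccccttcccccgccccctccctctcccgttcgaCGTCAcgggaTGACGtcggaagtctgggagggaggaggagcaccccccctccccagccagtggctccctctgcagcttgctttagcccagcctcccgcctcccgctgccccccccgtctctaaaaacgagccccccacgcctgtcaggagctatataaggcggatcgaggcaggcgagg
Egr4 (chr6:85513590-85513839, minus strand): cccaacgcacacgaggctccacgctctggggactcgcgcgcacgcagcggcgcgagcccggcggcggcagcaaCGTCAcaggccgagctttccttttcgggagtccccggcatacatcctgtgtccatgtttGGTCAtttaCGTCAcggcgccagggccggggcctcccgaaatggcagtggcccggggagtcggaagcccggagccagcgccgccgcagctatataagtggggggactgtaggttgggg
Fosb (chr7:19310046-19310295, minus strand): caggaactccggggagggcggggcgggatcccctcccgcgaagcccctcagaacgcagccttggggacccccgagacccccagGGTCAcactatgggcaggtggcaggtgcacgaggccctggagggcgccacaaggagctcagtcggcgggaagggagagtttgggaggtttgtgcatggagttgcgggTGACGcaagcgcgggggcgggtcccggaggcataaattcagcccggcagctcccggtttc

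The Oxt window held TGACC at 5 places, at 184 to 180, 166 to 162, 160 to 156, 102 to 98 and 83 to 79 bases before the start, the first of them on the opposite strand. The Avp window held none of the 3 motifs. The Pmch window held TATAAA at 27 to 22 bases before the start. The Npas4 and Egr4 windows each held TGACG at 2 places, and the Fosb window at 60 to 56 bases before the start. The Egr4 and Fosb windows also held TGACC, at 118 to 114 and 167 to 163 bases before the start, both on the opposite strand. Of the 10115 tested genes with 1 RefSeq promoter entry, 25.7% held TGACG, 32.4% held TGACC and 6.86% held TATAAA in this window. TAATTA was in 2.52% and the CArG box in 1.19%. Among the 14 of 23 immediate early genes with 1 entry, 10 (71.4%) held TGACG, 6 (42.9%) TGACC, 2 (14.3%) TATAAA and none TAATTA or the CArG box. Their windows had a median GC content of 67.2% and a median observed over expected CpG ratio of 0.743. Over the 10115 genes these were 59.6% and 0.704, and TGACG itself holds a CpG. Of the 6 of 10 tested magnocellular and releasing hormone genes with 1 entry, 3 (50%) held TGACG and 2 (33.3%) TGACC. A match is a run of letters and was not tested as a binding site.

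Several libraries held transcripts of neighbouring tissue. Gh, the growth hormone gene of the anterior pituitary, read 22386 and 11719 CPM in libraries 1 and 3 of the ataxin-3 line hypothalamus and 16406 CPM in library 3 of the knockout line hypothalamus. In the other 3 hypothalamus libraries it read 4.51 to 7.76 CPM. CPM here are counts per library size, the latter adjusted by TMM factors. Slc17a7 read 119 and 88.5 CPM in hypothalamus libraries 1 and 3 of the knockout line against 0.561 to 12.3 CPM in the other 4, and 1242 to 1369 CPM in cortex. These 2 are named below, by Slc17a7 alone, as the libraries with cortical transcripts. Neurod6, a gene of cortical glutamate neurons, was not raised in them. It read 0.616 and 1.82 CPM there, 1.1 to 1.87 CPM in the other 4, and 69 to 85.4 CPM in cortex. Which tissue gave the Slc17a7 reads was not tested. Cdhr1, a marker of olfactory bulb projection neurons, read 115 CPM in hypothalamus library 1 and 42 CPM in cortex library 3 of the knockout line, and 3.47 to 6.55 CPM elsewhere. Adora2a, which marks striatal neurons, reached 9.03 CPM in hypothalamus library 3 of the ataxin-3 line. It read 0.95 to 1.85 CPM in the other hypothalamus libraries and 6.14 to 14 CPM in the cortex libraries. In the reverse direction, Pmch read 1.79 CPM and Hcrt 0.925 CPM in cortex library 2 of the knockout line, and at most 0.204 and 0.0874 CPM in the other cortex libraries. Each region carried the defining genes of its label in all 6 libraries. Gene counts per library ran from 27547467 to 37657710 in hypothalamus and from 30846049 to 46001354 in cortex. Hypothalamus libraries differed more among themselves, with a biological coefficient of variation of 13.7% against 4.61% in cortex.

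**Figure D1:**
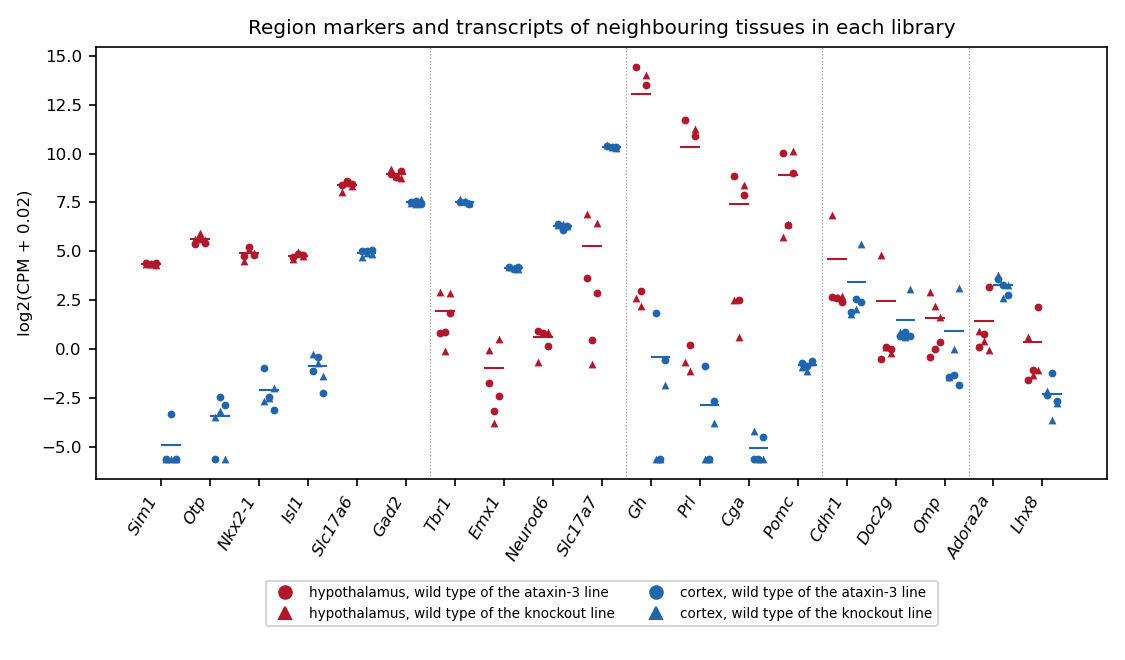
Levels of region markers (left of the second dotted line) and of transcripts from pituitary, olfactory and striatal tissue in each of the 12 libraries, as log2 of CPM plus 0.02. Points are libraries, circles and triangles the wild types of the ataxin-3 and knockout lines, short bars the means of 6 libraries. Sim1 to Gad2 sit higher in all 6 hypothalamus libraries and Tbr1 to Slc17a7 in all 6 cortex libraries, while Gh and Prl split the hypothalamus libraries into 3 high and 3 low.

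Of 17085 genes tested, 6969 (40.8%) were higher in hypothalamus and 6873 (40.2%) higher in cortex by edgeR's quasi-likelihood test at a Benjamini-Hochberg adjusted p under 0.05. Such calls are the rule here, at 81.0% of genes, and 47.5% of the called genes differed by under 1.5-fold. A stricter test, edgeR's test against a minimum fold of 2 at the same adjusted threshold, called 1482 genes (8.67%) over 2-fold higher in hypothalamus and 1641 (9.60%) over 2-fold higher in cortex. Past that test, 439 genes exceeded 8-fold toward hypothalamus and 272 toward cortex, and 159 and 53 exceeded 32-fold. In this fit of all the libraries the largest differences were therefore more numerous toward hypothalamus. These counts were not repeated without the libraries that held transcripts of neighbouring tissue. The 6 libraries of one region lay wholly above those of the other for 11206 genes (65.6%). Among genes past the 2-fold test this held for 98.4%. Where single genes below passed that test, regions that do not overlap are therefore the rule and not particular to them. Scaling by library totals alone moved the median log2 fold change of all genes from 0.018 to 0.181 and the share of calls toward hypothalamus from 50.3% to 61.5%. List medians and single-gene values below are on the TMM scale and shift by about that amount. Log2 fold changes are hypothalamus minus cortex throughout, with their standard error (SE), also where they stand in parentheses, and levels are mean ± SD over 6 libraries or the lowest, median and highest library.

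**Figure D2:**
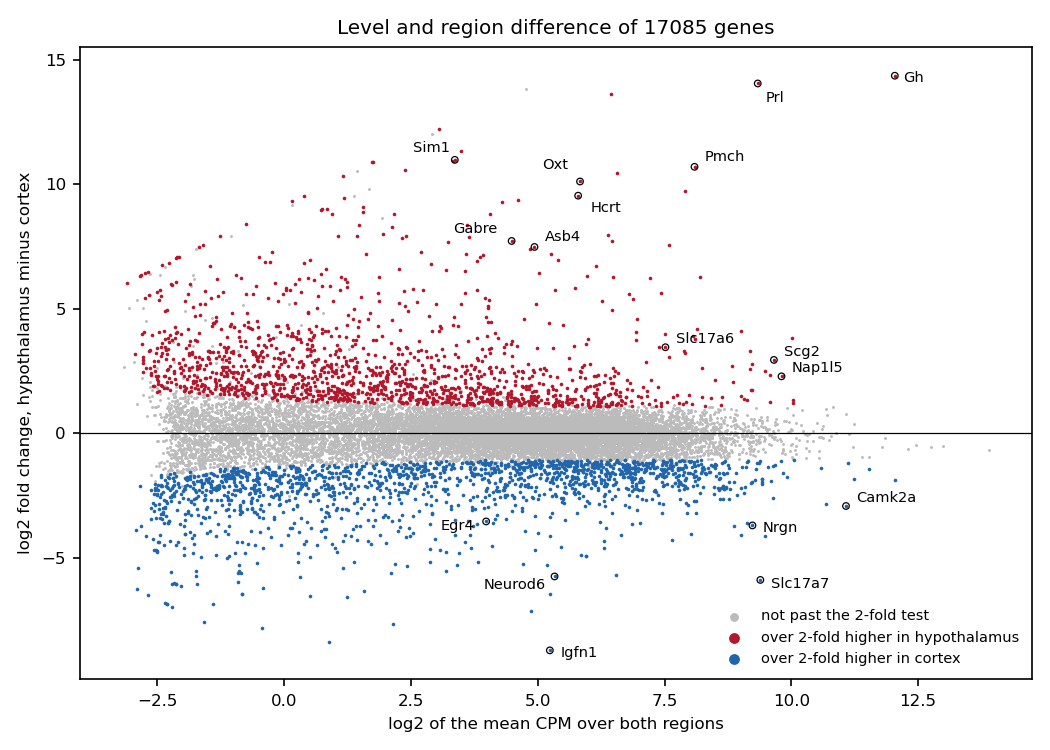
Each of the 17085 tested genes by log2 of its mean CPM over both regions (horizontal) and its log2 fold change, hypothalamus minus cortex (vertical). Red points passed the 2-fold test toward hypothalamus (1482) and blue points toward cortex (1641), and the spread upward at low and middle levels exceeds the spread downward.

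Transcription factors that pattern the 2 regions separated them. Of 31 hypothalamic transcription factors, 28 were higher in hypothalamus, 25 of them over 2-fold, with a median log2 fold change of 6.18 against 0.02 for all genes. The median was 5.77 with the 4 members that had no cortical count set at their lower bounds. Sim1, which specifies paraventricular and supraoptic neurons, read 19.8, 20.6 and 21.4 CPM in hypothalamus and 0, 0 and 0.0801 CPM in cortex. Its 3 cortical counts were all in library 2 of the ataxin-3 line, and the ratio of hypothalamus to cortex was 1475 (95% exact interval 504 to 7155, counting error only). Otp, a partner of Sim1 in the same neurons, read 41.3, 48.4 and 61.3 CPM in hypothalamus and 0, 0.0806 and 0.16 CPM in cortex, a log2 fold change of 9.38 (SE 0.22). Nkx2-1, the regulator of the ventral hypothalamus, read 22.9, 29.2 and 37.1 CPM in hypothalamus and 0.0933, 0.157 and 0.495 CPM in cortex, a log2 fold change of 7.16 (SE 0.25). The 2 regions did not overlap for any of these. Nr5a1 (SF-1), the factor of the ventromedial nucleus, averaged 18.8 ± 4.55 CPM in hypothalamus and 0.087 ± 0.0338 CPM in cortex, and Isl1 of the arcuate nucleus 27.5 ± 2.39 CPM in hypothalamus and 0.519 ± 0.237 CPM in cortex. Six6 had no counts in any cortex library and 10.5 to 25.3 CPM in hypothalamus, which is at least 197-fold higher against a floor of 3 counts per library. On the same floor Nkx2-4 was at least 78.5-fold and Hmx3 at least 52.7-fold higher. Foxb1, a factor of the mammillary region, averaged 20 ± 5.1 CPM in hypothalamus and 0.0128 ± 0.022 CPM in cortex, where it had 3 counts, a ratio of 1433 (490 to 6952). Listed factors higher in cortex included Lhx6 (-1.30) and Pou3f2 (-0.72), neither over 2-fold. Lhx6 was -1.99 without the libraries with pituitary or olfactory bulb transcripts and lost its call in the ataxin-3 line alone (edgeR adjusted p = 0.095). No listed factor was over 2-fold higher in cortex, and 2 were without those libraries (1 without the 3 libraries with Gh). Lhx8 averaged 1.24 ± 1.59 CPM in hypothalamus and 0.185 ± 0.116 CPM in cortex, with 1 high library at 4.35 CPM, the one with raised Adora2a. Its log2 fold change of 2.71 became 1.64 without that library, and its call was lost without the libraries with cortical or with olfactory bulb transcripts (edgeR adjusted p = 0.13 and 0.084).

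Cortical transcription factors showed the mirror image, with 24 of 26 higher in cortex, 20 of them over 2-fold, and a median of -2.21. Neurod6, a factor of glutamate neurons, read 0.616, 1.74 and 1.87 CPM in hypothalamus and 69, 79.3 and 85.4 CPM in cortex, a log2 fold change of -5.75 (SE 0.16). Its levels stayed apart in every library. Tbr1 of deep-layer neurons averaged 184 ± 10.3 CPM in cortex and 3.77 ± 2.87 CPM in hypothalamus, and Emx1, which marks the cortical lineage, 17.8 ± 0.609 CPM in cortex and 0.493 ± 0.564 CPM in hypothalamus. Without the 2 hypothalamus libraries with cortical transcripts, their log2 fold changes went from -5.70 to -6.92 and from -5.55 to -7.48. Fezf2 of subcortical projection neurons (-3.61, SE 0.11), Zbtb18 (-2.80, SE 0.07) and Mef2c, an activity-regulated factor (-4.09, SE 0.26), were also over 2-fold higher in cortex. Mef2c reached -4.70 without the libraries that held pituitary or olfactory bulb transcripts. The 2 exceptions were Foxp2 and Tle4, higher in hypothalamus at log2 fold changes of 0.37 and 0.26 with overlapping libraries. Foxp2 lost its call in the knockout line alone (edgeR adjusted p = 0.078). No caudal Hox gene reached the level needed for testing in either region.

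**Figure D3:**
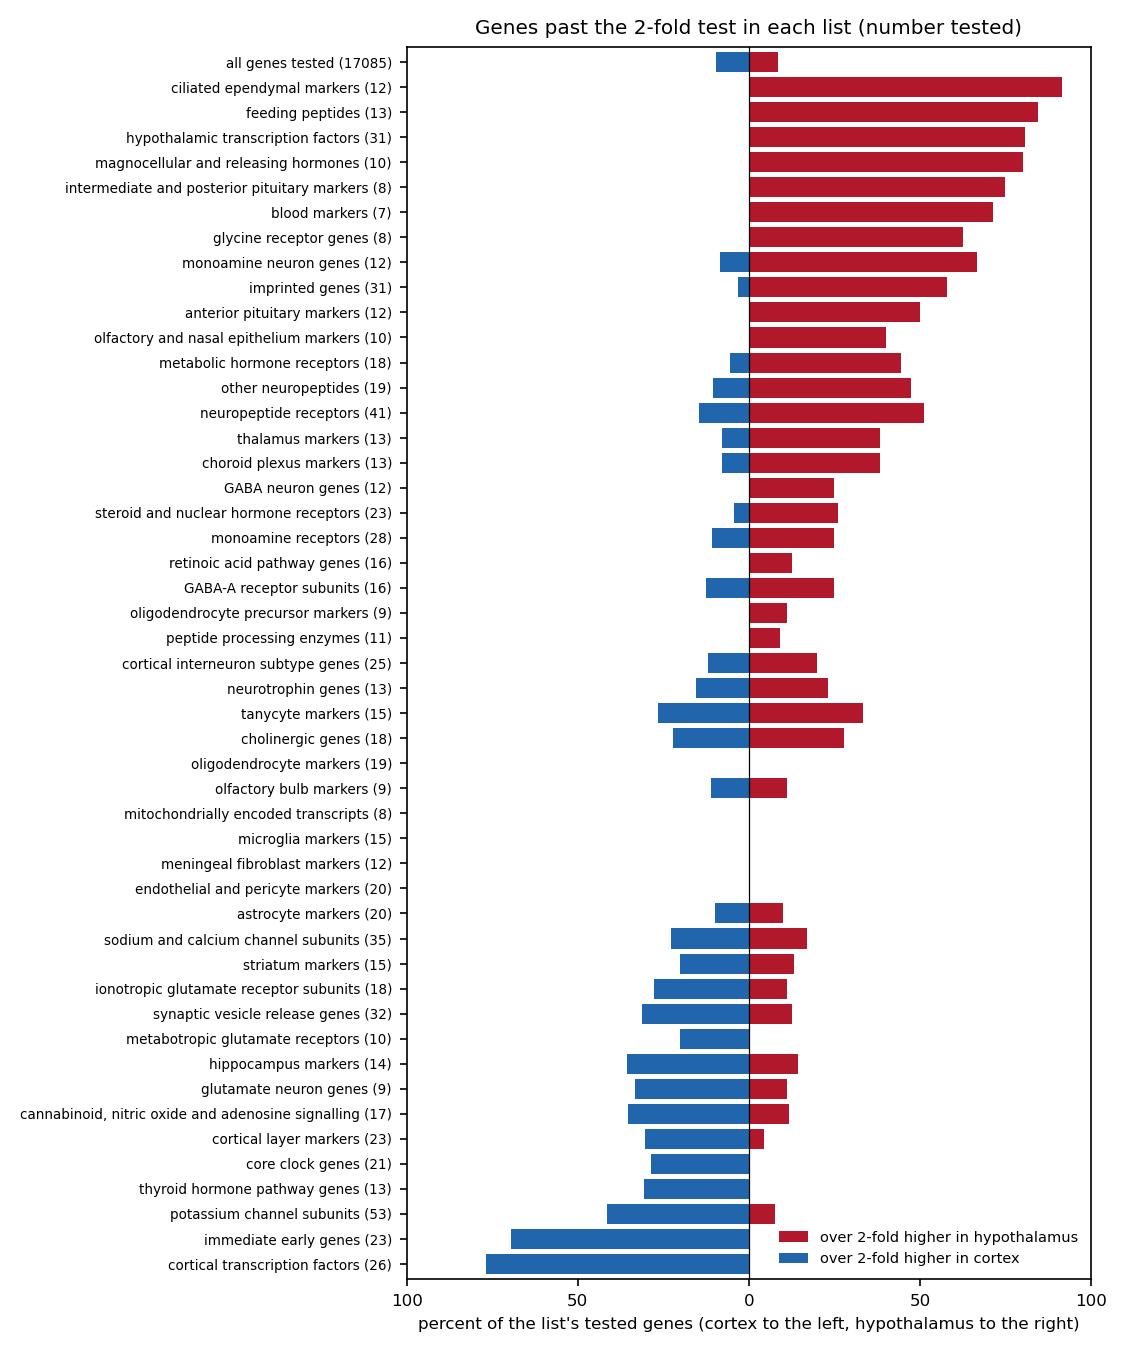
Percent of the tested genes of each list, and of all genes at the top, that passed the 2-fold test toward hypothalamus (red, right) or toward cortex (blue, left), with the number tested in parentheses. Ciliated ependymal markers, feeding peptides and hypothalamic factors stand at the hypothalamus end, and cortical factors and immediate early genes at the cortex end.

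Hormones that the hypothalamus sends to the pituitary and the blood were mostly higher there. Of 11 listed genes for magnocellular and releasing hormones, 10 were tested, 8 were over 2-fold higher in hypothalamus and none was over 2-fold higher in cortex (median 2.99). Oxt read 85.4, 112 and 154 CPM in hypothalamus and 0.0344, 0.0863 and 0.185 CPM in cortex, a log2 fold change of 10.12 (SE 0.22). Avp, which lies beside Oxt on chromosome 2, read 108, 195 and 273 CPM in hypothalamus and 0, 0.154 and 0.24 CPM in cortex, a log2 fold change of 10.47 (SE 0.40), and 11.12 without the libraries with pituitary or olfactory bulb transcripts. For both genes every hypothalamus library lay far above every cortex library. Trh, the thyrotropin-releasing hormone precursor, read 87.5, 101 and 132 CPM in hypothalamus and 0.894, 1.21 and 5.13 CPM in cortex. Its highest cortex value was in library 3 of the knockout line, which held olfactory bulb transcripts, and without it the log2 fold change of 5.83 (SE 0.32) became 6.53. Ghrh, which drives growth hormone release, read 5.65, 7.85 and 13.3 CPM in hypothalamus and 0, 0.0274 and 0.07 CPM in cortex, a log2 fold change of 8.31 (SE 0.38), or 9.28 without the same library. Smaller differences were found for Tac2 of the neurons that pace gonadotropin release (2.38, SE 0.09), Pdyn (1.77, SE 0.09) and Gnrh1 (1.73, SE 0.18). The other 2 tested genes did not share the direction. Sst, somatostatin, averaged 135 ± 18.2 CPM in hypothalamus and 132 ± 14.9 CPM in cortex (edgeR adjusted p = 0.8). Crh, corticotropin-releasing hormone, averaged 2.89 ± 0.812 CPM in hypothalamus and 4 ± 0.32 CPM in cortex and was higher in cortex with overlapping libraries, a log2 fold change of -0.46 (SE 0.16), adjusted p = 0.014 by edgeR. This call was lost with library totals, with all 36 libraries and in each line alone (edgeR adjusted p = 0.061 to 0.1). Both peptides are also made by cortical interneurons.

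Feeding and arousal peptides were higher in hypothalamus in 11 of 13 tested genes of 16 listed, each over 2-fold, with a median of 8.31. Pmch, from neurons of the lateral hypothalamus, read 407, 521 and 698 CPM in hypothalamus and 0.0933, 0.166 and 1.79 CPM in cortex, a log2 fold change of 10.71 (SE 0.36). Without cortex library 2 of the knockout line it was 11.86. Hcrt, from neighbouring arousal neurons, read 51, 91.3 and 196 CPM in hypothalamus and 0.0257, 0.0405 and 0.925 CPM in cortex. The log2 fold change of 9.55 (SE 0.48) became 11.19 without that cortex library and 8.76 without the libraries with pituitary or olfactory bulb transcripts. Per length of exon Pmch read 727 ± 161 and 0.561 ± 0.897 RPKM and Hcrt 149 ± 83.8 and 0.255 ± 0.481 RPKM, hypothalamus first (RPKM, counts also divided by exon length). Agrp, the hunger peptide of the arcuate nucleus, read 2.53, 4.12 and 8.41 CPM in hypothalamus and 0, 0.0617 and 0.172 CPM in cortex, a log2 fold change of 5.90 (SE 0.38). Cartpt (4.35, SE 0.15), Gal (8.81, SE 0.24) and Nts (5.34, SE 0.15), which act on feeding and arousal, stayed clear of the cortex libraries. Gal was 9.42 without cortex library 2 of the ataxin-3 line. The RF-amide precursors Qrfp and Npvf were near 0 in cortex. Qrfp had 1 cortical count, a ratio of 993 (95% exact interval 178 to 39272), and Npvf had a log2 fold change of 8.91 (SE 0.38), or 9.54 without cortex library 2 of the knockout line.

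Pomc, the precursor of melanocortins, is made in arcuate neurons and in the pituitary. It read 1027, 505 and 1132 CPM in the 3 hypothalamus libraries with Gh and 53.3 to 83.6 CPM in the others, against 0.432 to 0.63 CPM in cortex. The log2 fold change of 9.74 (SE 1.43) became 7.09 without the 3 libraries with Gh. Npy, the partner of Agrp, went the other way, with 18.2, 27.8 and 38.9 CPM in hypothalamus and 58.1, 59.3 and 63.8 CPM in cortex and a log2 fold change of -1.08 (SE 0.09) (adjusted p = 7.4e-07 by edgeR). Cortical interneurons also make it. Nmb did not pass the test (2.84 ± 2.3 and 2.3 ± 0.723 CPM).

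Among 19 tested other neuropeptide and granin genes, 12 were higher in hypothalamus, 9 over 2-fold, and 4 higher in cortex, 2 over 2-fold. Scg2, a granin of secretory vesicles, read 1205, 1406 and 1761 CPM in hypothalamus and 176, 182 and 201 CPM in cortex, a log2 fold change of 2.95 (SE 0.08). Adcyap1, the PACAP precursor (2.73, SE 0.12), and Tac1, the substance P precursor (2.59, SE 0.13), showed differences of similar size. Toward cortex, Cck, the cholecystokinin precursor, read 11, 16 and 26.6 CPM in hypothalamus and 198, 212 and 232 CPM in cortex, a log2 fold change of -3.63 (SE 0.19). Of the peptides with lower levels, Ucn3, of perifornical and amygdalar neurons, averaged 1.03 ± 0.627 CPM in hypothalamus and 0.00873 ± 0.0135 CPM in cortex, with 2 cortical counts and a ratio of 113 (95% exact interval 31.1 to 943). Nms, of the suprachiasmatic clock, averaged 1.4 ± 0.576 CPM in hypothalamus and 0.0136 ± 0.0238 CPM in cortex, with 3 cortical counts and a ratio of 101 (34.2 to 492). Cort, the cortistatin precursor of cortical interneurons, averaged 4.29 ± 0.386 CPM in cortex and 0.281 ± 0.215 CPM in hypothalamus (-4.08, SE 0.27), and -4.88 without the libraries with cortical transcripts. Enzymes that process these peptides did not separate the regions as far, with 1 of 11 over 2-fold. The count was 3 when scaled by library totals, and 2 without the libraries with cortical, olfactory bulb, or pituitary or olfactory bulb transcripts. The 1 gene was Qpct, which forms the pyroglutamate of several hypothalamic hormones (2.46, SE 0.05). Cpe, the carboxypeptidase of the same pathway, averaged 1890 ± 80.9 CPM in hypothalamus and 1872 ± 85.3 CPM in cortex (edgeR adjusted p = 0.75).

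**Figure D4:**
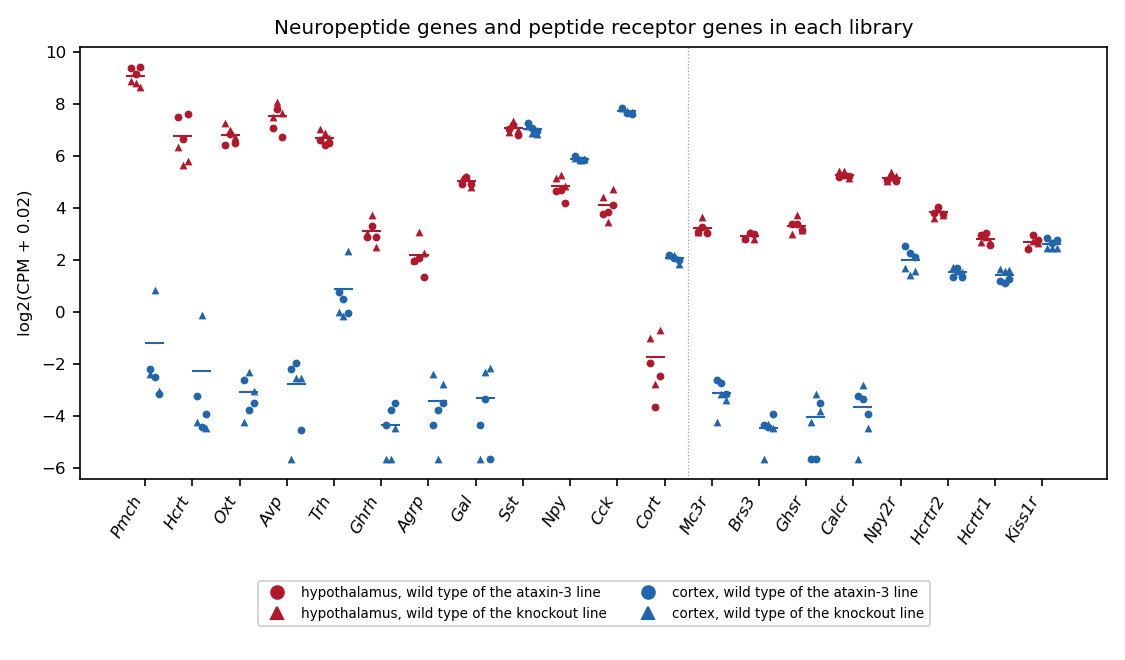
Levels of 12 neuropeptide genes and 8 receptor genes, separated by the dotted line, in each of the 12 libraries, as log2 of CPM plus 0.02. Points are libraries, by line as in the key, and short bars the means of 6 libraries. Pmch to Gal sit higher in all 6 hypothalamus libraries, Npy, Cck and Cort in all 6 cortex libraries, and Sst and Kiss1r overlap.

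Receptors for these peptides were mostly higher in hypothalamus. Of 41 tested neuropeptide receptors, 30 were higher in hypothalamus, 21 over 2-fold, and 10 higher in cortex, 6 over 2-fold, with a median of 1.43. Hcrtr2, the hypocretin receptor tied to wakefulness, read 12.3, 13.9 and 16.6 CPM in hypothalamus and 2.52, 2.97 and 3.37 CPM in cortex, a log2 fold change of 2.29 (SE 0.09). Hcrtr1 read 6.08, 7 and 8.28 CPM in hypothalamus and 2.14, 2.69 and 3.16 CPM in cortex, a log2 fold change of 1.43 (SE 0.09). For both the lowest hypothalamus library lay above the highest cortex library. Mc3r, a melanocortin receptor, read 8.2, 8.82 and 12.8 CPM in hypothalamus and 0.0344, 0.0929 and 0.146 CPM in cortex, a log2 fold change of 6.62 (SE 0.18), and Mc4r, its relative that restrains feeding, differed less (1.41, SE 0.12). Brs3, an orphan receptor that affects energy balance, averaged 7.71 ± 0.706 CPM in hypothalamus and 0.0265 ± 0.0151 CPM in cortex (8.01, SE 0.18). Npy2r averaged 36.1 ± 3.54 CPM in hypothalamus and 4.01 ± 1.24 CPM in cortex (3.22, SE 0.08), and Tacr3, the receptor for the product of Tac2, 19.4 ± 3.27 CPM in hypothalamus and 1.64 ± 0.278 CPM in cortex (3.56, SE 0.10). Vipr1, a receptor for vasoactive intestinal peptide, was the strongest in the other direction at 50.8 ± 2.83 CPM in cortex and 1.34 ± 0.5 CPM in hypothalamus (-5.27, SE 0.12). Kiss1r overlapped between the regions (6.46 ± 0.893 CPM in hypothalamus and 6.19 ± 0.721 CPM in cortex, edgeR adjusted p = 0.46).

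Receptors for hormones that reach the brain from the body were next. Of 18 tested metabolic hormone receptors and their adaptors, 8 were over 2-fold higher in hypothalamus and 1 in cortex (0 when scaled by library totals). Calcr, the calcitonin and amylin receptor, read 35.5, 38.4 and 43.7 CPM in hypothalamus and 0, 0.0634 and 0.123 CPM in cortex, a log2 fold change of 9.30 (SE 0.16), or 10.07 without cortex library 2 of the knockout line. Ghsr, the ghrelin receptor, read 8.14, 9.64 and 13.3 CPM in hypothalamus and 0, 0.0429 and 0.0925 CPM in cortex, a log2 fold change of 7.85 (SE 0.28), or 9.38 without cortex library 3 of the ataxin-3 line. Glp1r, the receptor for glucagon-like peptide, averaged 3.79 ± 0.745 CPM in hypothalamus and 0.0963 ± 0.0643 CPM in cortex (5.30, SE 0.26). Irs4, an insulin receptor substrate, averaged 175 ± 19.2 CPM in hypothalamus and 0.832 ± 0.32 CPM in cortex (7.73, SE 0.14), and Prlr, the prolactin receptor, 60.6 ± 2.67 CPM in hypothalamus and 1.76 ± 1.07 CPM in cortex (5.19, SE 0.19). These levels were near 0 or low in every cortex library. Lepr, the leptin receptor, averaged 5.84 ± 1.17 CPM in hypothalamus and 5.49 ± 0.641 CPM in cortex in the whole dissections and did not pass the test (edgeR adjusted p = 0.54), although it passed without the 3 libraries with Gh (0.27, edgeR adjusted p = 0.033). Of 23 steroid and nuclear hormone receptor genes, 6 were over 2-fold higher in hypothalamus and 1 in cortex (2 without the libraries with cortical transcripts), and the list median of -0.16 turned to 0.01 when scaled by library totals. Esr1, the oestrogen receptor of hypothalamic reproductive neurons, averaged 27.8 ± 8.18 CPM in hypothalamus and 3.19 ± 0.195 CPM in cortex (3.12, SE 0.22). Nr2f2 was higher in hypothalamus (1.90, SE 0.07) and its relative Nr2f1 higher in cortex (-1.35, SE 0.05).

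Transmitter genes divided the glutamate neurons of the regions by their vesicular transporter. Slc17a6, the transporter of most subcortical glutamate neurons, read 262, 341 and 389 CPM in hypothalamus and 26.1, 31.1 and 33.1 CPM in cortex, a log2 fold change of 3.46 (SE 0.08). Slc17a7, the cortical transporter, read 0.561, 9.82 and 119 CPM in hypothalamus and 1242, 1301 and 1369 CPM in cortex, a log2 fold change of -5.89 (SE 0.96). Without the 2 hypothalamus libraries with cortical transcripts it was -9.34, and -10.54 without those with pituitary or olfactory bulb transcripts. The 2 transporters lay on opposite sides with no overlap. Camk2a (3817 ± 172 CPM in cortex and 507 ± 74.3 CPM in hypothalamus) and Nrgn (1117 ± 45.5 CPM in cortex and 86.6 ± 19.1 CPM in hypothalamus), kinase and calmodulin-binding proteins of cortical spines, were over 2-fold higher in cortex, at -2.92 (SE 0.06) and -3.70 (SE 0.10). Of 9 glutamate neuron genes, 7 were higher in cortex and 3 over 2-fold. GABA neuron genes leaned toward hypothalamus in 9 of 12, with 3 over 2-fold. Gad2 read 433, 480 and 598 CPM in hypothalamus and 173, 182 and 201 CPM in cortex, a log2 fold change of 1.43 (SE 0.09), and Slc32a1, the vesicular GABA transporter, averaged 141 ± 19.6 CPM in hypothalamus and 73.5 ± 3.9 CPM in cortex (0.94, SE 0.09). Gad1, the other synthetic enzyme, averaged 443 ± 166 CPM in hypothalamus and 403 ± 50.8 CPM in cortex and did not pass the test (edgeR adjusted p = 0.58). Its highest values, 778 CPM in hypothalamus and 506 CPM in cortex, were in the 2 libraries with olfactory bulb transcripts, whose part in them was not tested. Slc6a11, a GABA transporter of astrocytes, averaged 1003 ± 100 CPM in hypothalamus and 166 ± 22.5 CPM in cortex (2.60, SE 0.09).

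Genes that name cortical cell types were not uniformly cortical. Of 23 tested layer markers, 7 were over 2-fold higher in cortex and 1 in hypothalamus, and the median of -0.18 was -0.02 when scaled by library totals. Of 25 interneuron subtype genes, 3 were over 2-fold higher in cortex and 5 in hypothalamus. The count toward cortex was 5 without the libraries with olfactory bulb or with pituitary transcripts, and 6 without both. Lamp5 averaged 241 ± 6.49 CPM in cortex and 19.6 ± 4.15 CPM in hypothalamus (-3.62, SE 0.13) and Pvalb, the calcium buffer of fast-spiking interneurons, 44.9 ± 1.89 CPM in cortex and 11.1 ± 2.31 CPM in hypothalamus (-2.03, SE 0.08). Nos1, the neuronal nitric oxide synthase, was instead higher in hypothalamus (1.27, SE 0.04).

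Monoamine genes were mostly higher in hypothalamus. Of 12 tested monoamine neuron genes, 8 were over 2-fold higher in hypothalamus and 1 in cortex (2 of 15 without the libraries with cortical transcripts, and 2 of 14 without those with pituitary or olfactory bulb transcripts). Hdc, the histamine-synthesising enzyme of the tuberomammillary neurons, read 52, 60.6 and 82.5 CPM in hypothalamus and 0.339, 0.704 and 1.17 CPM in cortex, a log2 fold change of 6.46 (SE 0.23). Slc18a2, the vesicular monoamine transporter, averaged 57.6 ± 12.9 CPM in hypothalamus and 0.325 ± 0.241 CPM in cortex (7.41, SE 0.30), and 8.06 without cortex library 3 of the knockout line. Th, of catecholamine neurons, averaged 37.6 ± 10.9 CPM in hypothalamus and 3.65 ± 4.58 CPM in cortex (3.59, SE 0.49), with 13 CPM in that same cortex library and 4.37 without it. Among 28 monoamine receptors, 7 were over 2-fold higher in hypothalamus and 3 in cortex. Htr2c, a serotonin receptor with a role in appetite, averaged 103 ± 13.4 CPM in hypothalamus and 27.9 ± 5.94 CPM in cortex (1.91, SE 0.07), and Adrb1, a noradrenaline receptor, 32.6 ± 2.54 CPM in cortex and 5.62 ± 0.449 CPM in hypothalamus (-2.54, SE 0.06). Of 18 cholinergic genes, 5 were over 2-fold higher in hypothalamus and 4 in cortex. The muscarinic receptors split, with Chrm1 higher in cortex (-3.09, SE 0.10) and Chrm5 higher in hypothalamus (5.73, SE 0.27).

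Subunits of transmitter-gated channels differed in both directions. Of 16 tested GABA-A receptor subunits, 9 were higher in hypothalamus, 4 over 2-fold, and 6 higher in cortex, 2 over 2-fold. Gabre and Gabrq, the epsilon and theta subunits, read 36.2, 44 and 57.6 CPM in hypothalamus and 0.175, 0.196 and 0.278 CPM in cortex, and 125, 136 and 169 CPM in hypothalamus and 1.08, 1.24 and 1.59 CPM in cortex. Their log2 fold changes were 7.73 (SE 0.12) and 6.73 (SE 0.12), and no cortex library approached the hypothalamic levels. Gabrd, the extrasynaptic delta subunit, averaged 71.9 ± 2.1 CPM in cortex and 4.15 ± 3.73 CPM in hypothalamus (-4.11, SE 0.47), and -4.79 without hypothalamus library 3 of the ataxin-3 line. It was -5.19 without the libraries with cortical transcripts and -5.85 without those with pituitary or olfactory bulb transcripts. Of 8 glycine receptor genes, 5 were over 2-fold higher in hypothalamus and none in cortex, among them Glra1 (5.29, SE 0.14) and Glra2 (2.32, SE 0.05). Of 18 ionotropic glutamate receptor subunits, 5 were over 2-fold higher in cortex and 2 in hypothalamus, and the median of -0.07 was 0.10 when scaled by library totals. Grin2a (-2.09, SE 0.07), Grin2b (-2.18, SE 0.08) and Gria3 (-1.86, SE 0.04) were higher in cortex, and Grin3a higher in hypothalamus (1.16, SE 0.03). Among 10 metabotropic receptor and Homer genes, 2 were over 2-fold higher in cortex and none in hypothalamus.

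Voltage-gated channels and release proteins leaned toward cortex. Of 53 potassium channel subunits, 37 were higher in cortex, 22 over 2-fold, and 11 higher in hypothalamus, 4 over 2-fold, with a median of -0.92. Kcnq5, a subunit of the M-current, read 31.2, 33.1 and 36.6 CPM in hypothalamus and 151, 157 and 166 CPM in cortex, a log2 fold change of -2.24 (SE 0.04). Kcna5 (3.02, SE 0.07) and Kcnj10, the inward rectifier of astrocytes (1.15, SE 0.04), were higher in hypothalamus, and Kcnc4 averaged 74.1 ± 5.64 CPM in hypothalamus and 74.1 ± 2.55 CPM in cortex. Of 35 sodium and calcium channel genes, 8 were over 2-fold higher in cortex and 6 in hypothalamus. Scn8a, the sodium channel of axon initial segments, averaged 583 ± 22.9 CPM in cortex and 132 ± 5.43 CPM in hypothalamus (-2.14, SE 0.04), while Scn9a, better known from sensory neurons, was higher in hypothalamus (4.60, SE 0.12). Of 32 vesicle release genes, 10 were over 2-fold higher in cortex and 4 in hypothalamus. Stx1a (-2.78, SE 0.05), Sv2b (-2.65, SE 0.05) and Snap25 (-1.20, SE 0.04) were higher in cortex, Syt9 higher in hypothalamus (2.47, SE 0.06), and Rab3a averaged 436 ± 23.4 CPM in hypothalamus and 445 ± 18.2 CPM in cortex (edgeR adjusted p = 0.53).

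Immediate early genes were higher in cortex in 19 of 23, 16 of them over 2-fold, with a median of -1.66. Npas4, induced by calcium entry in neurons, read 3.33, 4.65 and 6.07 CPM in hypothalamus and 28.3, 41.3 and 51.9 CPM in cortex, a log2 fold change of -3.11 (SE 0.19). Egr4, a zinc-finger factor of the same response, read 1.63, 2.01 and 4.31 CPM in hypothalamus and 24.6, 28.5 and 33.5 CPM in cortex, a log2 fold change of -3.54 (SE 0.16). The 2 regions did not overlap for either gene, whose promoters with TGACG are printed above. Arc, which acts at active synapses, averaged 380 ± 66.9 CPM in cortex and 20.6 ± 12.7 CPM in hypothalamus (-4.27, SE 0.30), Egr1 439 ± 50.2 CPM in cortex and 49.9 ± 28.7 CPM in hypothalamus (-3.19, SE 0.30) and Fosb 12.7 ± 2.68 CPM in cortex and 3.01 ± 1.2 CPM in hypothalamus (-2.10, SE 0.22). Egr3, the largest difference of the list, averaged 59.5 ± 7.72 CPM in cortex and 2.47 ± 1.71 CPM in hypothalamus (-4.69, SE 0.27), or -5.47 without the libraries with cortical transcripts. Egr1 was -3.86 without the libraries with pituitary or olfactory bulb transcripts. Homer1, whose short form is induced by activity, averaged 230 ± 12.4 CPM in cortex and 37.3 ± 5.44 CPM in hypothalamus (-2.63, SE 0.09). Jun (0.26) and Jund (0.41) were the members higher in hypothalamus, and Btg2 and Nptx2 did not pass the test. Jun lost its call in the ataxin-3 line alone (edgeR adjusted p = 0.15). Of 21 core clock genes, 17 were higher in cortex, 6 over 2-fold, and 4 higher in hypothalamus, none over 2-fold. Npas2, a forebrain partner of the clock, read 8.54, 9.91 and 11.6 CPM in hypothalamus and 45, 52 and 54.2 CPM in cortex, a log2 fold change of -2.33 (SE 0.07). Hlf, an output factor, averaged 353 ± 7.54 CPM in cortex and 119 ± 7.01 CPM in hypothalamus (-1.57, SE 0.03), and Clock 105 ± 4.63 CPM in cortex and 91.9 ± 4.92 CPM in hypothalamus (-0.19, SE 0.03). Clock lost its call with library totals and with all 36 libraries (edgeR adjusted p = 0.4 and 0.12). The labels give no time of day for the dissections.

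Imprinted genes, which are expressed from 1 parental copy, were over 2-fold higher in hypothalamus in 18 of 31 tested and over 2-fold higher in cortex in 1. Peg10 read 491, 526 and 625 CPM in hypothalamus and 26.5, 29.8 and 32.6 CPM in cortex, a log2 fold change of 4.18 (SE 0.06). Asb4 read 53.7, 60.7 and 70.6 CPM in hypothalamus and 0.257, 0.324 and 0.466 CPM in cortex, a log2 fold change of 7.49 (SE 0.11). Nap1l5 averaged 1487 ± 66.6 CPM in hypothalamus and 304 ± 10.4 CPM in cortex (2.29, SE 0.04), Nnat 975 ± 175 CPM in hypothalamus and 57 ± 12.4 CPM in cortex (4.12, SE 0.14) and Magel2, from the region deleted in Prader-Willi syndrome, 79.7 ± 10.8 CPM in hypothalamus and 1.49 ± 0.322 CPM in cortex (5.74, SE 0.12). These 5 genes stayed apart from cortex in every library. Dlk1, a growth regulator also made in the pituitary, averaged 382 ± 84.7 CPM in hypothalamus and 2.24 ± 1.19 CPM in cortex (7.55, SE 0.24). Meg3, a noncoding RNA from the same imprinted domain as Dlk1, was the member over 2-fold higher in cortex at 6659 ± 290 CPM in cortex and 1837 ± 193 CPM in hypothalamus (-1.86, SE 0.06). Mest averaged 47.5 ± 27.2 CPM in hypothalamus and 27 ± 0.36 CPM in cortex and did not pass the test (edgeR adjusted p = 0.068). The counts do not separate the parental copies.

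Glial and vessel markers seldom passed the 2-fold test, which 8.67% of all tested genes passed toward hypothalamus and 9.60% toward cortex. Of 19 oligodendrocyte markers, 17 were higher in hypothalamus and none passed the 2-fold test, with a median of 0.41. Ermn, of the oligodendrocyte cytoskeleton, read 69.5, 77.6 and 89.1 CPM in hypothalamus and 47.7, 54 and 61.4 CPM in cortex, a log2 fold change of 0.53 (SE 0.04). Mbp, myelin basic protein, was instead higher in cortex (-0.27, SE 0.05), a call lost in the ataxin-3 line alone (edgeR adjusted p = 0.062). Mobp was also called higher in cortex (-0.22, SE 0.06, edgeR adjusted p = 0.0064), but not without the libraries with cortical transcripts (-0.11, adjusted p = 0.11). Of 9 tested oligodendrocyte precursor markers, 4 were higher in hypothalamus and 5 in cortex (3 without the 3 libraries with Gh or with library totals), with 1 over 2-fold in hypothalamus, and the median of -0.10 was 0.06 when scaled by library totals. Astrocyte markers were higher in hypothalamus in 14 of 20, with 2 over 2-fold in each direction (1 toward hypothalamus without the libraries with olfactory bulb transcripts). Agt, angiotensinogen, read 215, 223 and 253 CPM in hypothalamus and 4.04, 5.38 and 7.08 CPM in cortex, a log2 fold change of 5.39 (SE 0.07). Slc1a2, the glutamate transporter, read 1561, 1613 and 1684 CPM in hypothalamus and 3992, 4211 and 4792 CPM in cortex, a log2 fold change of -1.42 (SE 0.05). The 2 astrocyte genes lay on opposite sides with no overlap. Microglia markers were higher in cortex in 13 of 15 and endothelial and pericyte markers in 15 of 20, none over 2-fold, with medians of -0.49 and -0.52. Without the 3 libraries with Gh, 1 endothelial or pericyte marker was over 2-fold higher in cortex and 3 were higher in hypothalamus. P2ry12 of resting microglia averaged 41.7 ± 3.8 CPM in cortex and 23.7 ± 2.49 CPM in hypothalamus (-0.82, SE 0.07) and Flt1 of capillaries 88.9 ± 3.62 CPM in cortex and 46.5 ± 1.45 CPM in hypothalamus (-0.94, SE 0.03). Of 12 meningeal fibroblast markers, 4 were higher in hypothalamus. The count was 9 without the 3 libraries with Gh and 7 with library totals.

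Markers of the ciliated cells that line the ventricles were higher in hypothalamus. Of 12 tested ciliated ependymal markers, 12 were higher there and 11 passed the 2-fold test, with a median of 3.05. The list includes Hdc, which neurons also make. Fam183b read 11.4, 13.6 and 17.8 CPM in hypothalamus and 0.653, 0.819 and 1.02 CPM in cortex, a log2 fold change of 4.11 (SE 0.15), and Foxj1, the master regulator of motile cilia, averaged 23.2 ± 2.64 CPM in hypothalamus and 4.66 ± 0.637 CPM in cortex (2.32, SE 0.10). Tanycyte markers, of the glia that line the third ventricle, split into 5 over 2-fold higher in hypothalamus and 4 in cortex out of 15, and their median of -0.10 was 0.06 when scaled by library totals. Rax averaged 3.5 ± 0.943 CPM in hypothalamus and 0.0309 ± 0.0312 CPM in cortex (6.60, SE 0.33), and 8.21 without cortex library 3 of the knockout line. Gpr50 averaged 27.7 ± 5.21 CPM in hypothalamus and 0.226 ± 0.0678 CPM in cortex (6.93, SE 0.19). Dio2, which activates thyroid hormone and is also made by cortical astrocytes, averaged 113 ± 8.79 CPM in cortex and 26.9 ± 7.73 CPM in hypothalamus (-2.07, SE 0.20). Choroid plexus markers were over 2-fold higher in hypothalamus in 5 of 13 and in cortex in 1 (0 without the libraries with cortical or with pituitary transcripts). That 1 was Ttr, transthyretin, at 7.07, 20.5 and 80.5 CPM in cortex against 0.688, 1.19 and 1.97 CPM in hypothalamus. Its log2 fold change of -4.54 (SE 0.71) did not pass the test without the libraries with pituitary or olfactory bulb transcripts (-4.50, adjusted p = 0.15). Of 7 tested blood markers, 7 were higher in hypothalamus and 5 over 2-fold. Hbb-bs, a globin gene whose near-identical copies share reads, averaged 176 ± 42.6 CPM in hypothalamus and 40.3 ± 4.98 CPM in cortex (2.13, SE 0.18).

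Hormone and growth factor pathways added smaller contrasts. Over all tested genes, 8.67% were over 2-fold higher in hypothalamus and 9.60% in cortex. The count of retinoic acid genes toward hypothalamus is near the first of these shares. Of 13 thyroid hormone pathway genes, 10 were higher in cortex and 4 over 2-fold, none was higher in hypothalamus (1 with library totals), and the median was -0.94. Klf9, a thyroid-responsive factor, averaged 207 ± 7.75 CPM in cortex and 83.1 ± 5.94 CPM in hypothalamus (-1.32, SE 0.05), and Thrb, a receptor, 88.1 ± 4.01 CPM in cortex and 45.8 ± 4.22 CPM in hypothalamus (-0.94, SE 0.06). Of 16 tested retinoic acid genes, 2 were over 2-fold higher in hypothalamus and none in cortex (1 without the libraries with cortical, with olfactory bulb or with pituitary transcripts, each set left out alone, and 2 without the last 2 sets together). Toward hypothalamus these included the binding protein Crabp1 (4.93, SE 0.25, and 5.60 without the libraries with pituitary or olfactory bulb transcripts). Of 13 tested neurotrophin genes, 3 were over 2-fold higher in hypothalamus and 2 in cortex. Ret, a receptor for GDNF family ligands, averaged 44.4 ± 7.67 CPM in hypothalamus and 3.91 ± 0.448 CPM in cortex (3.50, SE 0.12) and Sort1, a sorting receptor, 727 ± 21.3 CPM in cortex and 238 ± 15.8 CPM in hypothalamus (-1.61, SE 0.04). Of 17 cannabinoid, nitric oxide and adenosine genes, 6 were over 2-fold higher in cortex and 2 in hypothalamus. Faah, which breaks down anandamide, read 31, 32.4 and 35.9 CPM in hypothalamus and 128, 134 and 138 CPM in cortex, a log2 fold change of -2.02 (SE 0.04), and Adora1, the adenosine receptor, averaged 275 ± 10.4 CPM in cortex and 106 ± 8.54 CPM in hypothalamus (-1.38, SE 0.04). Of 8 tested mitochondrially encoded transcripts, 6 were higher in cortex, none over 2-fold, with mt-Co1 at -0.66 (SE 0.05).

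Markers of tissues around the dissections were tallied in the same way. The shares to set beside them are 8.67% of all tested genes over 2-fold higher in hypothalamus and 9.60% in cortex. Of 12 tested anterior pituitary markers, 9 were higher in hypothalamus, 6 over 2-fold. Gh averaged 8422 ± 9819 CPM in hypothalamus and 0.744 ± 1.4 CPM in cortex, a log2 fold change of 14.37 (SE 3.42), which became 4.12 without the 3 libraries with Gh. Prl, prolactin, read 0.433, 958 and 3365 CPM in hypothalamus and 0, 0.0257 and 0.524 CPM in cortex, and its call (adjusted p = 0.006 by edgeR) was lost without hypothalamus library 3 of the knockout line (8.77, adjusted p = 0.21). The list gave 8 of 10 tested without the 3 libraries with Gh, and 4 of 12 without the libraries with cortical transcripts, 3 of them over 2-fold. Of 8 intermediate and posterior pituitary markers, 6 were over 2-fold higher in hypothalamus. Of 9 olfactory bulb markers, 2 were higher in hypothalamus and 1 in cortex, and 4 and 4 without the 2 libraries with olfactory bulb transcripts. Of 10 tested olfactory and nasal epithelium markers, 4 were over 2-fold higher in hypothalamus and none in cortex. The count was 2 without the libraries with cortical transcripts, and 2 of 11 without the 3 libraries with Gh. Stoml3 of sensory neurons averaged 3.58 ± 1.8 CPM in hypothalamus and 0.848 ± 1.34 CPM in cortex (2.70, SE 0.57). It was 3.63 without the libraries with pituitary or olfactory bulb transcripts, and lost its call in the knockout line alone (1.61, edgeR adjusted p = 0.19). Striatum markers were over 2-fold higher in hypothalamus in 2 of 15 and in cortex in 3, thalamus markers in 5 and 1 of 13 (0 in cortex without the libraries with cortical or with olfactory bulb transcripts), and hippocampus markers in 2 and 5 of 14. Striatum markers higher in hypothalamus numbered 7, and 3 without the 3 libraries with Gh. The part of such tissue in the other lists was not tested.

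Genes outside these lists were among the most distinct. Toward hypothalamus, the smallest p of the 2-fold test belonged to AW551984, which read 276, 288 and 317 CPM in hypothalamus and 3.05, 3.66 and 5.23 CPM in cortex, a log2 fold change of 6.23 (SE 0.07). Also among the smallest were Minar2 (2.85, SE 0.04), Dgkk, a diacylglycerol kinase (6.97, SE 0.10), Gpr165, an orphan receptor (3.58, SE 0.05), Gpx3, a secreted glutathione peroxidase (5.61, SE 0.08), and Sfrp5, a secreted Wnt antagonist (5.45, SE 0.10). Toward cortex, Vxn read 26.8, 28.8 and 33.4 CPM in hypothalamus and 468, 490 and 518 CPM in cortex, a log2 fold change of -4.06 (SE 0.05), and Cabp1, a calcium sensor, 16, 17.3 and 19.6 CPM in hypothalamus and 154, 158 and 170 CPM in cortex, a log2 fold change of -3.19 (SE 0.04). The rule that named these genes took only genes whose 2 regions did not overlap, so each stood apart in every library by choice. The largest fold toward cortex was that of Igfn1, at 75.3 ± 10.6 CPM in cortex and 0.247 ± 0.42 CPM in hypothalamus (-8.72, SE 0.37), and -9.91 without hypothalamus library 3 of the knockout line. Robo3, an axon guidance receptor, averaged 74.6 ± 5.88 CPM in cortex and 0.844 ± 0.191 CPM in hypothalamus (-6.46, SE 0.10), and Ovol2 8.81 ± 0.522 CPM in cortex and 0.0403 ± 0.021 CPM in hypothalamus (-7.68, SE 0.17). Ovol2 was -9.31 without the libraries with pituitary transcripts.

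Compared per length of exon, as RPKM, the most abundant transcripts also differed. In hypothalamus Sparcl1 (926 ± 59.2), Eef1a1 (875 ± 41.6), Nap1l5 (807 ± 36.1) and Pmch (727 ± 161 RPKM) led, once Gh (9770 ± 11391) and Prl (919 ± 1058), carried by 3 libraries, are set aside. In cortex Calm2 (1106 ± 16.9), Nrgn (769 ± 31.3) and Cpe (717 ± 32.7 RPKM) were among the leaders. Nrgn was the most regional of these cortical genes, at 59.6 RPKM in hypothalamus, and Pmch of the hypothalamic ones, at 0.561 RPKM in cortex.

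The region difference was next compared between the wild types of the 2 lines. No gene passed edgeR's test of that difference (smallest adjusted p = 0.365), 920 genes had an unadjusted p under 0.05 where 854 would be expected by chance, DESeq2 called 28 and limma voom none. Without hypothalamus library 2 of the knockout line, edgeR called 19. The genes with the smallest p included Il33, Npy2r and Ermn. The log2 fold change of Npy2r was 2.78 in the ataxin-3 line and 3.68 in the knockout line. Of the 13842 genes called over both lines, 10870 were also called in each line alone with the same sign, and none with opposite signs. That absence is no evidence that the lines agree. The calls rest on the mean over the lines, in which opposite differences tend to cancel.

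The 12 hypothalamus and cortex libraries of the ataxin-3 transgenic and Hcrt knockout mice took no part in these fits and give the same contrast in other samples. In them 72.7% of 16936 genes were called and 17.6% passed the 2-fold test. Of the wild-type calls, 5955 of 6969 toward hypothalamus (85.4%) and 5842 of 6873 toward cortex (85.0%) were called with the same sign in the mutants, and 1 and 0 with the opposite sign. Past the 2-fold test the shares were 1284 of 1482 (86.6%) and 1399 of 1641 (85.3%). Pmch, at 10.71 in wild types, was 10.85 in the mutants, Oxt 10.04, Neurod6 -6.28 and Npas4 -3.39. Hcrt was 9.55 in wild types and 3.25 in the mutants, which by design lack the gene or its cells. Gh was 6.34 in the mutants and Slc17a7 -9.31, against 14.37 and -5.89 in wild types, where the libraries high in Gh or Slc17a7 described above enter. Their part in the difference was not tested.

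**Figure D5:**
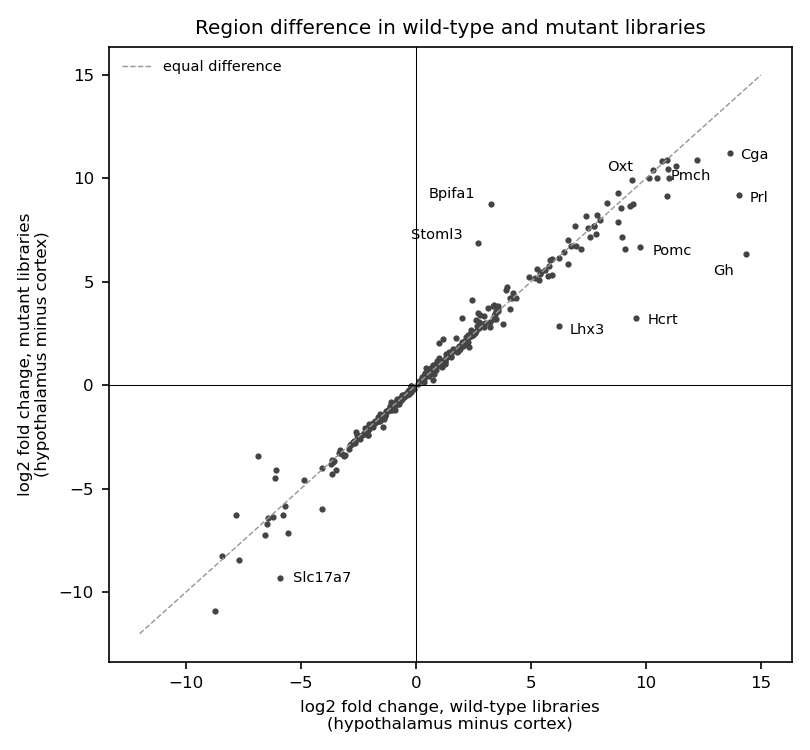
Log2 fold change, hypothalamus minus cortex, in the 12 wild-type libraries (horizontal) and the 12 mutant libraries (vertical) for the 336 genes of the naming rule that were called in wild types and tested in both. All 336 have the same sign. Hcrt, Gh, Prl, Pomc and Lhx3 lie below the dashed line of equal difference, and the nasal genes Bpifa1 and Stoml3 above it.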

How the data were processed

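Poly(A) RNA was sequenced from 500 ng of total RNA per library with a stranded kit, per the labels' protocols. The authors deposited raw, unnormalized counts per Ensembl gene, 1 table of 38924 genes per library. Per the submitters' processing notes, the tools included cutadapt 1.2.1, TopHat2 2.0.9 and HTSeq 0.5.4p3, with GRCm38. The strand setting, and which annotation release was counted, is information not given in sources used here, so overlapping and antisense genes are uncertain. Unassigned lines (25.2% to 30.9% of a library) were left out, including reads without a feature, at 6.85% to 7.13% in hypothalamus and 12.7% to 13.3% in cortex. Symbols, positions and exon lengths came from GENCODE M21 (37607 identifiers matched), promoters from RefSeq.

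edgeR 4.0.16 (R 4.3.3) fitted 4 group means by quasi-likelihood with TMM factors after its default filter, and the contrast was the mean over lines. SE is the log2 fold change divided by the square root of F. Calls needed an adjusted p under 0.05. Alternatives used DESeq2 1.42.0, limma 3.58.1, other filters, scalings, designs and fewer libraries. Scripts were tested on simulated data. A count of 0 allows up to 3 counts, for counting error only. No 2 libraries of a group were copies (chi-square per degree of freedom 3.59 to 67.2).

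The members and the 49 gene lists were chosen with earlier results of these data known. Named genes were, by rule, 29 fixed genes, in each direction the 12 largest differences and 12 smallest p of the 2-fold test without overlap, up to 6 smallest and 2 largest p of each list, and 10 between lines. Genes named beyond that rule (Arc, Calm2, Eef1a1, Egr1, Egr3, Esr1, Fosb, Foxj1, Gabrd, Glp1r, Grin2b, Jun, Jund, Kcnj10, Lepr, Lhx6, Magel2, Mbp, Mc4r, Mef2c, Meg3, Mirg, Nms, Nnat, Nr5a1, Pou3f2, Rian, Rtl1, Scn9a, Sparcl1, Ttr, Ucn3, Vipr1) were chosen after their values were seen. Some genes are not reported here.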

Additional observations from a re-analysis of the deposited data

Results flagged for a closer look

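In 8 of 70 groups of 6 libraries looked at, the highest library stood far from the other 5 for its group's range, past Dixon's 95% critical value. Chance flags about 1 in 20 such groups. Cortex library 2 of the knockout line read 0.925 CPM of Hcrt (next highest 0.0874) and 1.79 CPM of Pmch (next 0.204). Cortex library 3 of the knockout line read 5.13 CPM of Trh (next 1.72) and 506 CPM of Gad1 (next 392), and hypothalamus library 1 of the same line read 778 CPM of Gad1 (next 424). Those 2 libraries are also the ones with Cdhr1 at 42 and 115 CPM. Cortex libraries of the ataxin-3 line gave the others: library 1 read 0.495 CPM of Nkx2-1 (next 0.231) and 3.55 CPM of Gh (next 0.653), and library 2 read 0.0801 CPM of Sim1 (next 0).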

How the results depend on the processing

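Counts of genes higher in each region and past the 2-fold test stayed within 1.5 times of the reported ones under each alternative run. Leaving out 1 library at a time gave 6841 to 7125 genes higher in hypothalamus and 6659 to 6820 higher in cortex, and 1413 to 1553 and 1588 to 1702 past the 2-fold test. The same fits gave 0 to 19 genes that differed between the lines, 332 to 342 of the 403 named genes called, 28 to 29 lists with a positive median, and 84.8% to 86.1% of calls shared with the mutants. The count of genes that differed between the lines was 0 as reported, 28 with DESeq2, and 17 without the libraries with pituitary or olfactory bulb transcripts, an alternative chosen after seeing the data, as was leaving out the 2 libraries with olfactory bulb transcripts. The cause was not tested. With the replicate block the counts were 6892 and 6800, and 1502 and 1615 past the 2-fold test. The labels do not say whether same-numbered libraries share a mouse, and the main fit did not pair them. Same-numbered deviations correlated by 0.0402 to 0.0587 in the ataxin-3 line and by -0.13 to 0.078 in the knockout line. Different-numbered ones correlated by -0.0377 to -0.00962 and by -0.193 to 0.248. Correlations this low cannot decide whether the libraries are pairs. Where an alternative left 1 library in a group, that library was assumed to vary like the others. Without the libraries with pituitary or olfactory bulb transcripts, each hypothalamus group had 1 library, so the spread came from cortex alone. Cortex libraries varied less, with a biological coefficient of variation of 4.61% against 13.7% in hypothalamus. Counts and p-values of that alternative, the 17 genes among them, may therefore be too confident. Of 162 called genes named in the text, 147 lost no call in any of the 27 alternatives that tested them, and none of the 162 changed direction while called. Scaling by library totals lost Clock, Crh and Mobp, voom lost Gh, Prl and Ttr, all 36 libraries in 1 fit lost Bpifa1, Clock and Crh, the ataxin-3 line alone lost Adora2a, Crh, Jun, Lhx6, Lhx8, Mbp and Mobp, and the knockout line alone lost Bpifa1, Crh, Foxp2, Gh, Prl, Slc17a7 and Stoml3. Of the named genes that did not pass, Btg2, Cdhr1, Cpe, Kcnc4, Kiss1r, Lepr, Mest, Nptx2 and Rab3a passed in at least 1 alternative.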

Other observations

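The X chromosome held a higher share of genes over 2-fold higher in hypothalamus than any autosome. Of its 611 tested genes, 116 (19%) were over 2-fold higher in hypothalamus and 41 (6.71%) in cortex, with a median log2 fold change of 0.26, while the autosomes ranged from 6.31% (chromosome 19) to 11.3% (chromosome 14) toward hypothalamus. This tally was made after the values were seen and has no test.

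Members of the imprinted domain of Dlk1 differed in both directions. The protein-coding Dlk1 and Rtl1 were higher in hypothalamus at 7.55 (SE 0.24) and 6.81 (SE 0.18). Other members of the domain, coding ones among them, are not given here. The noncoding Meg3, Rian and Mirg were higher in cortex at -1.86 (SE 0.06), -0.31 (SE 0.04) and -0.75 (SE 0.06). Mirg averaged 34.2 ± 1.94 CPM in cortex and 20.5 ± 3.38 CPM in hypothalamus, and Rian 779 ± 29 CPM in cortex and 627 ± 46.2 CPM in hypothalamus.

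Several noncoding classes had larger shares toward cortex than protein-coding genes. Of 370 lincRNA genes 23% and of 454 antisense genes 20% were over 2-fold higher in cortex, against 8.09% of 15236 protein-coding genes, and 26 of 58 snoRNA genes (44.8%) were. Toward hypothalamus the shares were 8.11% of lincRNA, 9.91% of antisense, 8.94% of protein-coding and 0% of snoRNA genes. The 57 bidirectional promoter lncRNA genes did not share this, at 8.77% in cortex and 5.26% in hypothalamus. The share of reads without a feature was also higher in cortex (12.7% to 13.3% against 6.85% to 7.13%), and its part in these counts was not tested.

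In the 250 bases before the start, genes over 2-fold higher in hypothalamus (915 with 1 promoter entry) had a median observed over expected CpG ratio of 0.511, those higher in cortex (796) 0.608 and all tested genes 0.704. TGACG was found in 15.7%, 22.4% and 25.7% of them, and TATAAA in 9.95%, 10.8% and 6.86%. TGACG itself holds a CpG, so its share is not separate from that ratio. Of 11 feeding peptide genes with 1 entry, 4 (36.4%) held TATAAA: Hcrt, Npvf, Pmch and Pomc. Npvf and Pomc (18.2%) also held TAATTA, against 2.52% of all tested genes, and none held the CArG box.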
